A study of Mus musculus with 18 samples.

Results

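The constant genes Ighm and Ighd, with the interval that leads from Ighd down to Ighg3, were examined as contact targets of the intronic heavy chain enhancer Eμ, end by end and in windows of 2 and 5 kb. All fragment ends at mm10 chr12:113371233-113421024 were taken, which left out every end within 5 kb of the bait at chr12:113426025-113426048. This gave 187 fragment ends in a stretch of 49.8 kb, out of 440025 ends listed anywhere in the 18 libraries and 56916 on chromosome 12. Of the 187, 9 lay in the part of Ighm over 5 kb from the bait (chr12:113418826-113421024), 4 between Ighd and Ighm (chr12:113416325-113418825), 34 in Ighd (chr12:113407535-113416324) and 140 in the interval down to the Ighg3 unit (chr12:113371233-113407534). RefSeq (GRCm38.p6, the same assembly as mm10) annotates Ighm at 113418826 to 113422730, so the end of the gene nearest the bait was not covered. The interval holds 3 annotated pseudogenes, Gm9134, Gm9136 and Gm5190, and no protein-coding gene.

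In mature B cells Ighm and Ighd are read from a single long primary transcript, and alternative splicing and polyadenylation give IgM and IgD in the same cell. Eμ lies between the J segments and the switch region ahead of Ighm. Class switch recombination joins that switch region to the switch region of a gene further downstream, and the DNA between them, Ighm and Ighd included, is removed from that allele. LPS with IL4 directs switching mainly to Ighg1 and Ighe, and LPS alone to Ighg3 and Ighg2b. After activation B cells commonly lose IgD from the surface. In these bulk libraries fewer alleles that still carry the stretch and fewer contacts per allele cannot be told apart.

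4C-seq amplifies the fragments ligated to a single bait, and the number of reads at a fragment end is taken as a measure of contact. The bait is defined by a primer pair, which the study gives as follows, shown 5′ to 3′ because every value here was measured from it.
bait primer 1: tctgtcctaaaggctctgaga
bait primer 2: gaacacagaagtatgtgtatgga

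The cells were mouse splenic B cells depleted of CD43-positive cells and fixed in 2% formaldehyde, either wild type (WT) or Med1 mutant. Med1 is part of Mediator, the large complex through which factors bound at enhancers reach the transcription machinery. The mutant allele, any Cre driver, and the strain and age of the animals are not given in the sources used here. Each genotype was studied resting (day 0), after 2 days with LPS and IL4, and after 2 days with LPS alone, with 3 libraries in each of the 6 groups. Nothing in the labels says that replicates came from separate animals, so p-values measure the spread between libraries, which may be technical. WT resting and LPS + IL4 libraries are titled WTKO but labelled WT by genotype, and the genotype label was followed. The growth label of WT LPS + IL4 replicate 2 names aCD40 with IL4 in place of LPS with IL4. Contacts carry no marker of cell type and no measure of Med1, so neither the cell type nor the loss of Med1 could be checked.

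The 12 resting and LPS + IL4 libraries had 2470497 to 21074434 reads each, of which 1016043 to 10193114 lay on chromosome 12 over 5 kb from the bait and 102342 to 800008 in the stretch. Shares below are percentages of those chromosome 12 reads. Reads carry no molecular identifiers, so counting error understates the error of a share, and the spread over libraries is given. For the 6 LPS libraries only the listing of an end is known, not its reads. An unlabelled split runs through the 12: 87 ends of chromosome 12 reached 50 reads in 5 or 6 of the libraries from WT replicate 3 and mutant replicates 2 and 3, and stayed below 50 in each of the other 6. Of those ends, 6 lay in the stretch, 4 in the interval and 2 in Ighd. They held 1.22% to 2.44% of its reads in the former 6 libraries and 0.00068% to 0.0018% (18 reads in all) in the latter 6.

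Within the stretch the reads sat on few ends. Of the 187 ends, 182 had a read in at least 1 of the 12 count libraries, 104 in all 12 and 90 in all 18 libraries. A set of 14 ends held 50% of the mean share and 49 ends held 90%, while 101 ends had a mean share under 0.01%. Neighbouring ends are not independent: 20 ends have a 24 bp interval that overlaps another, and the starts of the closest pair are 2 bp apart. At 74 cut sites both flanking ends, 28 bp apart, were listed, and 8 of these sites had both ends at a mean share of at least 0.05%. Of 34 sites with at least 1 end at 0.05%, 21 had a larger end over 10 times the smaller.

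Per kb, resting WT cells had the highest share over Ighm, 0.975% per kb ± 0.117 (SD, n = 3), followed by Ighd with 0.794% ± 0.0345. The ranges of these neighbours in the order did not overlap, at 0.856% to 1.09% and 0.758% to 0.826%. The interval with 0.201% ± 0.0188 and the stretch between Ighd and Ighm with 0.184% ± 0.0263 did not differ beyond their spread. After LPS + IL4 the order in WT was Ighm 0.899% ± 0.110, Ighd 0.326% ± 0.0216, the stretch between them 0.125% ± 0.0102 and the interval 0.0897% ± 0.00356, with no overlap between neighbours. The order in the mutant was that of WT in each condition, and the interval and the short stretch again overlapped at rest (0.187% ± 0.0150 and 0.184% ± 0.00506).

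The first comparison asked how activation with LPS and IL4 changed the contacts over these genes. Ighd and the interval down to Ighg3 lost over 50% of their share in both genotypes, the short stretch between Ighd and Ighm lost less, and the measured part of Ighm had, by reads without a cap, the smallest change of the 4 pieces. The whole stretch held 16.3%, 17.2% and 17.2% of reads in resting WT replicates 1 to 3 and 8.31%, 8.92% and 8.02% after LPS + IL4. In the mutant it held 16.6%, 15.0% and 15.9% at rest and 8.53%, 7.85% and 7.69% after activation. Activated libraries were all below resting ones, and the log2 change was -1.01 ± 0.07 in WT (edgeR, ± SE, adjusted p = 1.1e-08) and -0.98 ± 0.07 in the mutant (adjusted p = 1.6e-08). The number of covered ends hardly moved, at 152 to 164 of 187 in resting and 149 to 156 in activated WT libraries and at 144 to 164 and 144 to 168 in mutant ones, so the change was one of reads per end. The 168 was in mutant LPS + IL4 replicate 2, by far the deepest library (10193114 chromosome 12 reads), while replicates 1 and 3 of that group had 144 and 147. Covered ends of chromosome 12 over 5 kb from the bait numbered 7848 to 8953 in resting and 10758 to 11641 in activated WT libraries. In the mutant they numbered 7221 to 8106 at rest and 8450 to 15660 after activation. Set against those totals, the stretch had changes of -0.43 in WT and -0.61 in the mutant. Those values follow the larger number of ends covered elsewhere and are no measure of contact in the stretch.

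Ighm, which encodes the constant part of IgM and is the first constant gene transcribed, held 1.88%, 2.40% and 2.16% in resting WT libraries and 1.85%, 2.26% and 1.83% after LPS + IL4. The WT groups overlapped, with a log2 change of -0.12 ± 0.11 (adjusted p = 0.401). Mutant libraries held 2.62%, 2.28% and 2.46% at rest and 2.22%, 1.97% and 1.91% after activation, without overlap. The mutant change of -0.27 ± 0.11 passed the threshold by little (adjusted p = 0.0464). It missed it with TMM factors (adjusted p = 0.116) and without mutant resting replicate 1 (0.145) or 3 (0.0970) or mutant LPS + IL4 replicate 2 (0.113) or 3 (0.133). With the reads of an end limited to the 99th percentile over all covered ends in its library (the cap), the WT change was -0.55 (adjusted p = 0.00354) and the mutant change -0.47 (adjusted p = 0.0106). That cap fell on 3 of the 9 Ighm ends in each of the 12 libraries and removed 70.0% of the Ighm reads of resting WT libraries and 78.9% of those after LPS + IL4, and 73.2% and 79.4% in the mutant.

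Between Ighd and Ighm the share was 0.495%, 0.502% and 0.385% in resting WT libraries and 0.334%, 0.285% and 0.322% after activation. The mutant had 0.450%, 0.474% and 0.455% at rest and 0.319%, 0.322% and 0.232% after activation. Neither genotype showed overlap, and the log2 change was -0.55 ± 0.15 in WT (adjusted p = 0.00553) and -0.66 ± 0.15 in the mutant (adjusted p = 0.00181). These values rest on 4 ends, of which 2 had a mean share of at least 0.05%.

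Ighd, which encodes the constant part of IgD and shares its transcript with Ighm, held 7.26%, 7.01% and 6.66% in resting WT libraries and 2.76%, 3.09% and 2.75% after LPS + IL4. In mutant libraries it held 6.25%, 6.07% and 6.02% at rest and 2.85%, 2.64% and 2.75% after activation. No activated library came near a resting one. Ighd fell by 1.28 ± 0.07 on the log2 scale in WT (adjusted p = 4.8e-09) and by 1.15 ± 0.07 in the mutant (adjusted p = 1.6e-08). Its covered ends were 30 to 32 of 34 both at rest and after activation in WT, and 31 to 32 and 29 to 32 in the mutant. With the cap the change was -0.68 in WT and -0.74 in the mutant, and both passed. The cap removed more of the Ighd reads at rest (57.1% in WT, 48.2% in the mutant) than after activation (38.2% and 39.0%).

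The interval from Ighd to the Ighg3 unit held 6.63%, 7.30% and 8.0% in resting WT libraries and 3.37%, 3.29% and 3.12% after LPS + IL4. In mutant libraries it held 7.24%, 6.18% and 6.92% at rest and 3.14%, 2.92% and 2.80% after activation. The groups did not overlap in either genotype. The interval fell by 1.17 ± 0.09 on the log2 scale in WT (adjusted p = 5.1e-08) and by 1.20 ± 0.09 in the mutant (adjusted p = 3.7e-08). With the cap the change was -0.70 in WT and -0.75 in the mutant, both past the threshold. Here too the cap removed more reads at rest (31.9% in WT, 26.1% in the mutant) than after activation (11.5% and 11.0%). Its covered ends were 111 to 120 of 140 at rest and 108 to 113 after activation in WT, and 102 to 121 and 104 to 123 in the mutant. Of the 4 pieces, 3 passed in WT and 4 in the mutant, all lower. Of the 25 elements tested over the locus 56% passed in WT (28% lower and 28% higher) and 72% in the mutant (40% lower and 32% higher). Of the 19 elements outside the stretch and its pieces 47.4% and 63.2% passed in either direction. With so many elements called, the number of called pieces says little, and their values carry the comparison.

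**Figure D1:**
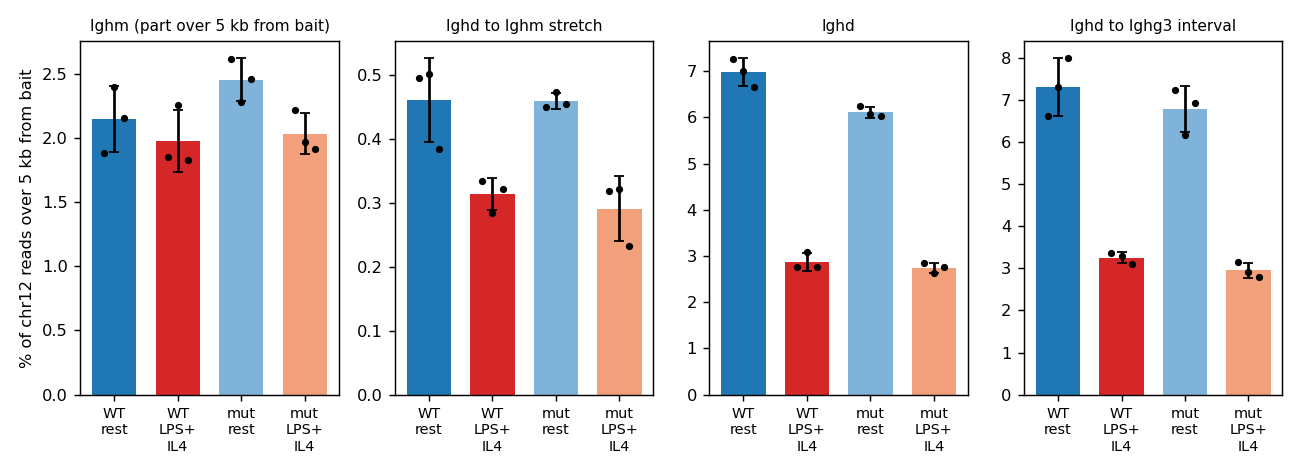
Share of chromosome 12 reads over 5 kb from the bait (percent, own axis per panel) for the measured part of Ighm, the stretch between Ighd and Ighm, Ighd, and the interval to Ighg3. Bars are means, error bars SD and points the 3 libraries of each group; Ighd lies at 6.02% to 7.26% in the resting libraries and at 2.64% to 3.09% after LPS + IL4, while the WT groups of Ighm overlap.

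The make-up of the stretch shifted with activation. Ighm provided 12.7% ± 1.19 of its reads in resting WT cells and 23.4% ± 1.64 after LPS + IL4, and 15.5% ± 0.305 and 25.3% ± 0.600 in the mutant. Ighd went from 41.4% ± 3.01 to 34.1% ± 0.744 of the reads in WT and from 38.7% ± 1.50 to 34.3% ± 1.29 in the mutant. The interval went from 43.2% ± 2.95 to 38.8% ± 1.82 and from 42.9% ± 1.45 to 36.8% ± 0.395.

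The ratio of Ighd to Ighm reads was 3.86, 2.92 and 3.09 in resting WT libraries and 1.49, 1.37 and 1.51 after activation. In the mutant it was 2.39, 2.66 and 2.45 at rest and 1.29, 1.34 and 1.44 after activation. Over both genotypes the log2 ratio fell by 1.03 (exact permutation of day within genotype, two-sided, 400 arrangements, p = 0.005, the smallest they allow, adjusted p = 0.0075 over 3 ratios). The ratio of the interval to Ighm fell by 0.99 (exact p = 0.005, adjusted p = 0.0075). The ratio of Ighd to the interval had a change of -0.04 (exact p = 0.66). These 3 ratios were chosen after the values were seen. With the cap, which lowers the Ighm reads most, the changes were -0.20 (adjusted p = 0.015) for Ighd to Ighm and -0.21 (adjusted p = 0.06) for the interval to Ighm.

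Against other parts of the locus the stretch also fell in relation. The mirror stretch, at the same distances from the bait on the side of the J and D segments, had a log2 change of -0.17 ± 0.14 in WT (adjusted p = 0.309) and -0.35 ± 0.14 in the mutant (adjusted p = 0.0342). The ratio of the stretch to the mirror was 3.70 ± 0.488 in resting WT cells and 2.12 ± 0.481 after LPS + IL4, and 2.71 ± 0.220 and 1.77 ± 0.273 in the mutant, a change of -0.72 on the log2 scale over both genotypes (exact p = 0.005, adjusted p = 0.005 over 3 ratios). With the cap this change was -0.29 and did not pass (adjusted p = 0.085). Against Ighg3, the next constant gene downstream, the ratio changed by -0.68 (adjusted p = 0.005). The Ighg3 unit itself changed by -0.27 ± 0.12 in WT (edgeR, adjusted p = 0.0640) and by -0.35 ± 0.12 in the mutant (adjusted p = 0.0167). Against Ighg1, the target of IL4, the ratio changed by -2.14 (exact permutation, adjusted p = 0.005). The stretch had 17.3 ± 2.52 times the Ighg1 reads in resting WT cells and 3.38 ± 0.376 times after activation. Ighg1 itself rose, by 1.33 ± 0.11 in WT (edgeR, adjusted p = 1.3e-07) and by 0.95 ± 0.11 in the mutant (adjusted p = 5.6e-06). The ratio to Ighg1 thus holds the gain of Ighg1 beside the loss of the stretch.

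At 2 kb the windows that passed lay over Ighd and the nearer part of the interval. The stretch spans 25 windows, of which 23 held ends. The estimate was lower in all 23 in both genotypes, so a window that did not pass is not shown to be unchanged. Further out, for example, the window at 113391025 had a WT change of -1.26 ± 0.42 that did not pass (edgeR, adjusted p = 0.356). In WT 9 of the 23 passed, all lower and all without overlap between groups, against 1.41% of the 1637 windows fitted over the locus (0.672% lower and 0.733% higher). In the mutant 8 of 23 passed, all lower, against 1.1% of 1637 (0.55% lower and 0.55% higher). The median log2 change of the 23 windows was -1.20 in WT and -0.95 in the mutant, against 0.11 and 0.12 over all windows. All 8 windows that passed in the mutant were among the 9 of WT, and in the remaining one, at 113409025 inside Ighd, the mutant change was -0.85 (adjusted p = 0.121). Groups did not overlap in 14 of the 23 windows in WT and in 17 in the mutant, against 15.3% and 12.2% of all windows. Without mutant LPS + IL4 replicate 3 the mutant count was 5, and DESeq2 called 14.

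Among windows that passed, those of largest change in WT were at chr12:113407025-113409024, across the 3′ end of Ighd, and at chr12:113401025-113403024, in the interval. The first held 1.73% to 2.04% at rest and 0.581% to 0.730% after LPS + IL4, a log2 change of -1.53 ± 0.14 (adjusted p = 5.8e-05). The latter held 0.646% to 1.10% at rest and 0.285% to 0.366% after activation, a change of -1.48 ± 0.20 (adjusted p = 0.00105). In the mutant the largest change among windows that passed was at chr12:113405025-113407024, just past the end of Ighd, from 1.68% to 1.77% at rest to 0.446% to 0.606% after activation. The change there was -1.66 ± 0.13 (adjusted p = 1.2e-05), and the WT change in that window was -1.47 ± 0.13 (adjusted p = 2.4e-05). The further windows that the naming rule picked, at 113399025 in WT and at 113395025, 113407025 and 113401025 in the mutant, changed by -1.47, -1.53, -1.43 and -1.36. With the cap the window at 113407025 no longer passed in WT (-0.70, adjusted p = 0.0782), nor did that at 113401025 in the mutant (-0.68, adjusted p = 0.0621). Without mutant LPS + IL4 replicate 3 the window at 113395025 just missed in the mutant (adjusted p = 0.0529).

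**Figure D2:**
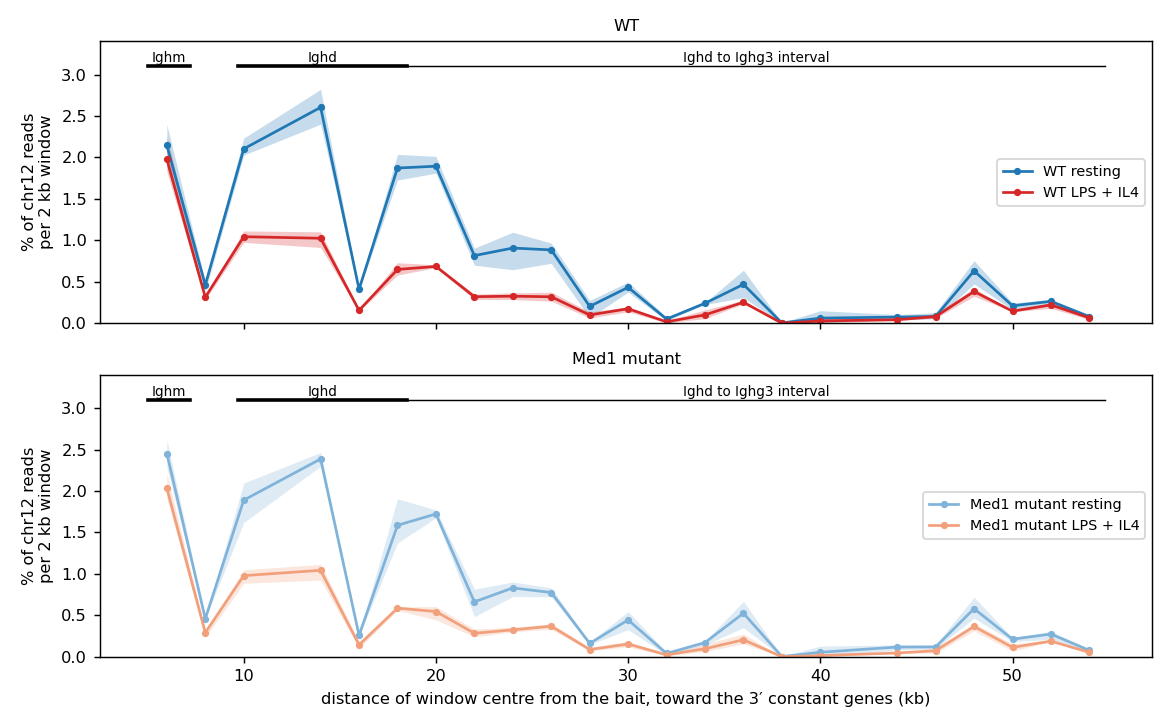
Share of chromosome 12 reads (percent) in each 2 kb window of the stretch that held ends, against the distance of the window centre from the bait in kb, for WT (top) and Med1 mutant (bottom). Lines with points are means of 3 libraries and shading runs from the lowest to the highest library, and windows without ends have no point; the window over Ighm nearest the bait keeps similar shares in WT (2.14% and 1.98%), while those over Ighd and just beyond it drop, for example from 1.89% to 0.685% at 20 kb.

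In windows of 5 kb the WT change was -0.19 ± 0.11 (adjusted p = 0.660) in the window nearest the bait, which holds Ighm, and then -1.19 ± 0.09, -1.45 ± 0.12, -1.48 ± 0.12 and -1.36 ± 0.16 in the next 4, centred 12.5 to 27.5 kb from the bait. These 4 passed, against 2.06% of 776 windows (0.773% lower and 1.29% higher). Beyond them the WT changes were -1.31, -0.90, -0.97, -0.64 and -0.30, and none passed. In the mutant 6 of 10 windows passed, all lower, against 1.8% of 776 (1.03% lower and 0.773% higher), among them the same 4 and those centred at 37.5 kb (-1.36 ± 0.30, adjusted p = 0.0204) and 47.5 kb (-0.76 ± 0.19, adjusted p = 0.0464). The outermost window, next to the Ighg3 unit, had a change of -0.30 ± 0.19 in WT and -0.51 ± 0.19 in the mutant and passed in neither.

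**Figure D3:**
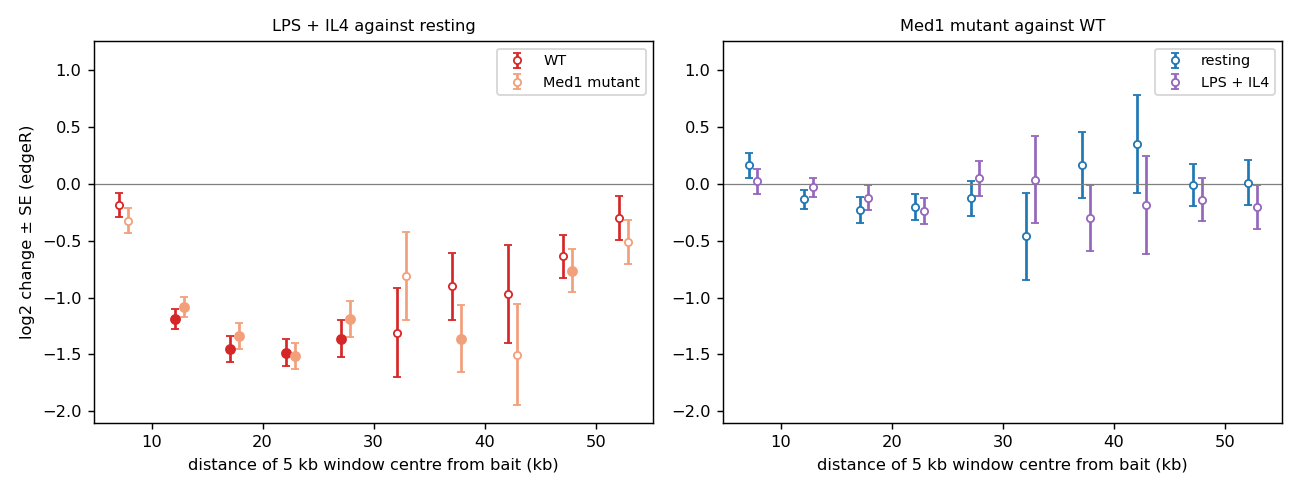
Log2 change ± SE (edgeR) in each 5 kb window of the stretch against the distance of its centre from the bait in kb, for LPS + IL4 against resting (left) and Med1 mutant against WT (right). Filled points have an adjusted p under 0.05; on the left the WT values go from -0.19 nearest the bait to -1.48 at 22.5 kb and -0.30 at 52.5 kb, and on the right no point is filled.

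End by end, 151 of the 182 ends read passed the filter of a mean of 10 reads. In WT 11 ends passed, all lower, against 0.613% of the 3426 ends fitted within 1 Mb of the bait (0.321% lower and 0.292% higher). These 11 were all of the lower calls there, beside 10 higher ones elsewhere. In the mutant 10 passed, all lower, against 0.584% (0.292% in each direction), and again they were all of the lower calls within 1 Mb. Single-end calls do not show that the fall was confined to the stretch. Summed over its ends, the 3′ flank up to 500 kb from the bait also fell. Its log2 change was -0.58 ± 0.08 in WT (edgeR, adjusted p = 2.0e-05) and -0.44 ± 0.08 in the mutant (adjusted p = 0.000268). Reads there were sparser, at 0.0270% per kb in resting WT cells against 0.339% in the stretch. The calls shared by both genotypes were 6, which is 54.5% of the WT calls and 60% of the mutant calls. In WT 8 of the 11 lay in Ighd and 3 in the interval, and in the mutant 7 of 10 and 3. The number of single ends called depends on each library: leaving out any 1 library of the groups compared left 0 to 3 in WT (0 without any of the 3 LPS + IL4 libraries) and 1 to 5 in the mutant. TMM factors left 7 and 1, and DESeq2 called 33 in each, all lower except 1 in the mutant.

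The 6 best-read ends held 30.4% of the mean share of the stretch. Of them 3 lie in Ighm within 0.4 kb, at 113419517, 113419604 and 113419888. The end at 113419517 held 0.757%, 0.993% and 0.864% in resting WT libraries and 0.694%, 0.788% and 0.682% after LPS + IL4, a log2 change of -0.27 ± 0.13 (adjusted p = 0.530). The end at 113419604 had changes of 0.24 in WT and -0.17 in the mutant, and the end at 113419888 of -0.03 and -0.15, none past the threshold. Within 7 bp of 113419604 an end at 113419611, singled out after its values were seen, held 0.132%, 0.154% and 0.0952% in resting WT libraries and 0.0262%, 0.00397% and 0.0245% after activation. Its change of -2.80 in WT did not pass (adjusted p = 0.0981), nor did -0.85 in the mutant, and its interval overlaps that of the better-read end.

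The other 3 of the 6 lie in Ighd, where the largest share was at 113412620. That end held 0.974%, 1.10% and 0.836% in resting WT libraries and 0.437%, 0.455% and 0.367% after activation, a change of -1.21 ± 0.20 (adjusted p = 0.0223). In the mutant it held 0.788%, 0.896% and 0.707% at rest and 0.482%, 0.531% and 0.305% after activation, without overlap, and its change of -0.86 ± 0.20 did not pass (adjusted p = 0.127). The end at 113415709, at the 5′ end of Ighd, passed in both genotypes (-0.94, adjusted p = 0.0267, and -1.02, adjusted p = 0.0209). So did the end at 113408019 near the 3′ end of Ighd (-1.43, adjusted p = 0.0498, and -1.55, adjusted p = 0.0340). With 1 library left out at a time, the WT calls at 113412620, 113415709 and 113408019 were each kept in 0 of 6 fits. The mutant calls were kept in 2 of 6 at 113415709 and in 1 of 6 at 113408019.

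Among the interval ends that passed, the largest change in WT was at 113402287, from 0.206%, 0.388% and 0.473% at rest to 0.0853%, 0.0615% and 0.0967% after LPS + IL4, a log2 change of -2.13 ± 0.32 (adjusted p = 0.0173). The end at 113405953 passed in both genotypes. It held 0.506%, 0.590% and 0.639% in resting mutant libraries and 0.105%, 0.219% and 0.0990% after activation, a change of -2.04 ± 0.29 (adjusted p = 0.0143), against -1.58 ± 0.28 in WT (adjusted p = 0.0341). With 1 library left out at a time, the call at 113405953 was kept in 0 of 6 fits in WT and in 3 of 6 in the mutant. The WT call at 113402287 was kept in 1 of 6. The further ends that the naming rule picked were 113408541 (-1.78) and 113412707 (-1.78) in WT and 113411070 (-2.15) and 113396175 (-1.60) in the mutant. Their calls were kept in 2, 1, 0 and 0 of 6 such fits.

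Of the 51 ends with a mean share of at least 0.05%, 47 had a lower estimate in WT and 50 in the mutant. That mean runs over resting and activated libraries, so an end can reach 0.05% through its resting libraries alone. The counts here are therefore a description, and the share among ends of like mean elsewhere was not computed. All 18 such ends of Ighd were lower in both genotypes, 17 without overlap between groups in WT and 15 in the mutant, where 12.8% and 12% of all ends fitted had groups without overlap. In the interval 24 of 27 were lower in WT and 26 in the mutant, 20 without overlap in each. The end with a higher estimate in both genotypes, at 113374816 near the Ighg3 unit, had changes of 0.75 and 0.55, neither past the threshold. Where both ends of a cut site reached 0.05%, both estimates were lower at 7 of 8 sites in each genotype, and the remaining site was the one that holds 113374816.

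**Figure D4:**
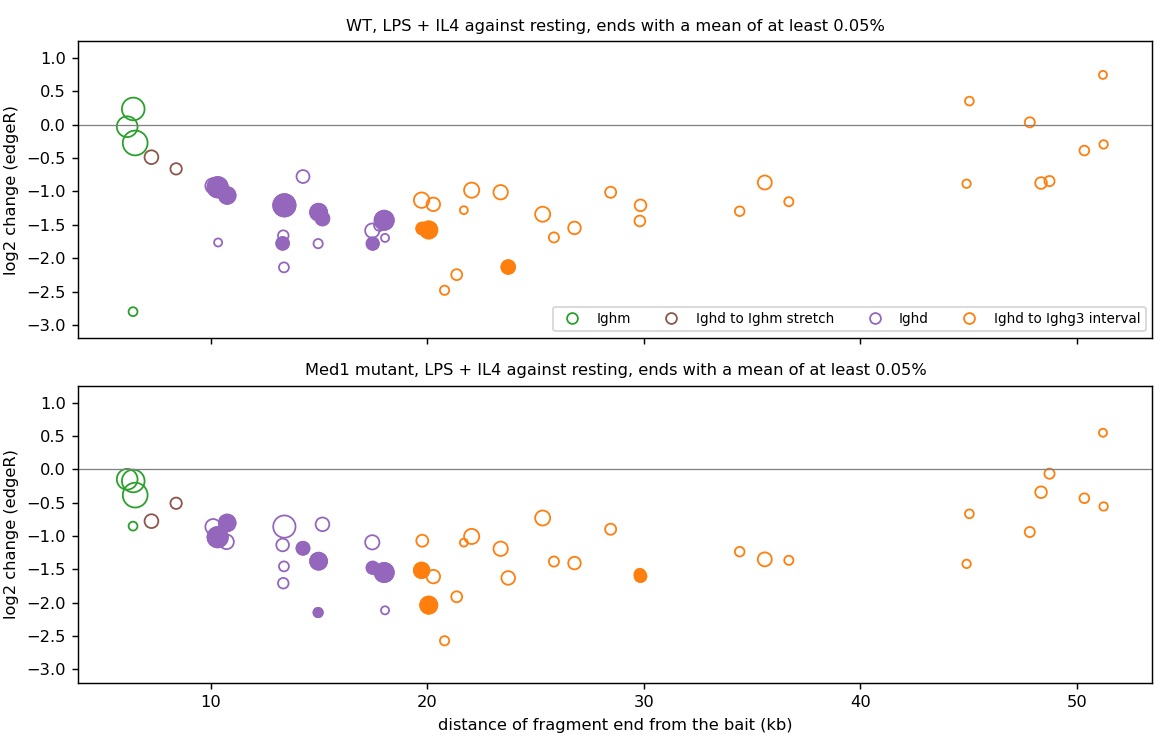
Log2 change after LPS + IL4 (edgeR) at each of the 51 ends with a mean share of at least 0.05%, against distance from the bait in kb, for WT (top) and Med1 mutant (bottom). Circle area grows with the mean share, colours give the piece of the stretch and filled circles have an adjusted p under 0.05; the 18 ends of Ighd all lie below 0, and the 3 large circles of Ighm lie between -0.39 and 0.24.

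The next question was whether loss of Med1 changed these contacts. No element, window or end of the stretch passed in either condition. At rest the whole stretch had a log2 difference, mutant against WT, of -0.10 ± 0.06 (edgeR, adjusted p = 0.410), and after LPS + IL4 of -0.07 ± 0.06 (adjusted p = 0.579). Over both conditions it was -0.08 (exact permutation of genotype within condition, two-sided, p = 0.065, adjusted p = 0.135 over 25 elements). Of the 25 elements, 8% passed at rest and 12% after LPS + IL4, none of them in the stretch, and of the 1637 windows of 2 kb 0% in either condition. At an unadjusted p under 0.05, 1 of the 23 windows passed in each condition, against 131 of 1637 at rest and 50 of 1637 after LPS + IL4. The genotypes did not overlap in 3 of the 23 windows at rest and in 1 after LPS + IL4, against 8.92% and 11% of all windows.

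Among the 51 ends with a mean share of at least 0.05%, 34 had a lower and 17 a higher estimate in the mutant, at rest as well as after LPS + IL4. At rest 7 of the 51 had genotypes without overlap, 6 lower and 1 higher, against 6.54% of all ends fitted. After LPS + IL4 there were 3 lower and 3 higher, against 8.44%.

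Ighd was lower in each of the 3 resting mutant libraries than in each WT library (6.02% to 6.25% against 6.66% to 7.26%). The log2 difference of -0.19 ± 0.07 did not pass (edgeR, adjusted p = 0.105). It passed with DESeq2 on the same library sizes (adjusted p = 0.0363), without the ends read in 1 library set (0.0494) and without WT resting replicate 3 (0.0463), and had the other sign with the cap (0.05). Within the library sets the difference was -0.19 (1 mutant against 2 WT libraries) and -0.14 (2 against 1). After LPS + IL4 it was -0.06 ± 0.07 (adjusted p = 0.660), and over both conditions -0.12 (exact p = 0.02, adjusted p = 0.125).

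Ighm had the opposite sign at rest, 0.19 ± 0.11 (adjusted p = 0.353), with a difference of 0.04 after LPS + IL4 and of 0.12 over both conditions (exact p = 0.18). The interval had -0.11 ± 0.09 at rest and -0.14 ± 0.09 after LPS + IL4 (adjusted p = 0.488 and 0.451). Within the library sets its resting difference was 0.06 and -0.29. Among 2 kb windows the one at chr12:113409025-113411024 inside Ighd, singled out after its values were seen, had the smallest p at rest, with 0.395% to 0.427% in WT and 0.248% to 0.273% in the mutant (log2 -0.66 ± 0.22, adjusted p = 0.574).

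The test of whether activation acted differently in the mutant found no passing element, window or end. For the stretch the difference of the activation changes, mutant minus WT, was 0.03 ± 0.09 (edgeR, adjusted p = 0.821). It was -0.15 ± 0.16 for Ighm, 0.13 ± 0.10 for Ighd and -0.03 ± 0.12 for the interval, with adjusted p of 0.672, 0.672 and 0.821. At an unadjusted p under 0.05 it passed at 0 of the 23 windows, against 96 of 1637, and at 4 of the 151 ends, against 236 of 3426.

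Cells cultured with LPS alone were compared by covered ends. The 3 WT LPS libraries listed 155, 146 and 141 of the 187 ends and the mutant LPS libraries 145, 143 and 133, where the 12 other libraries listed 144 to 168. In Ighd the WT LPS libraries listed 31, 28 and 29 of 34 ends and the mutant ones 30, 28 and 29. In Ighm the WT libraries listed 8, 9 and 8 of 9 and the mutant ones 7 each. The interval had 113, 106 and 101 of 140 in WT and 105, 105 and 94 in the mutant.

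Chromosome 12 had 7576 to 10406 covered ends over 5 kb from the bait in the WT LPS libraries and 6661 to 8987 in the mutant ones. Relative to these totals, the genotype difference for the stretch was 0.19 ± 0.16 on the log2 scale (limma, pseudocount of 1, adjusted p = 0.607), and 0 of 25 elements passed, or 0%. At an unadjusted p under 0.05 none passed either, the lowest being 0.0823. The mutant LPS libraries listed fewer ends of the stretch on average (140 against 147), so the sign of 0.19 comes from the chromosome 12 totals. As log odds of covered ends the difference for the stretch was -0.31. Neither value is a measure of contact. Of the 51 ends with a mean share of at least 0.05% in the other libraries, all were listed in each of 5 LPS libraries and 50 in mutant LPS replicate 3, which lacked 113402287. Nearly every well-read end of the stretch was listed under each condition, and a presence list does not show changes in read number like those above. Of the 6 ends read in 1 library set, each LPS library listed 4 to 6. A single end was listed in all 3 WT LPS libraries and in no mutant one (0.535% of 187, against 0.206% of the 5834 other ends within 1 Mb). The LPS libraries come from a separate deposit with another aligner named, so culture and processing cannot be told apart between them and the rest.

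**Figure D5:**
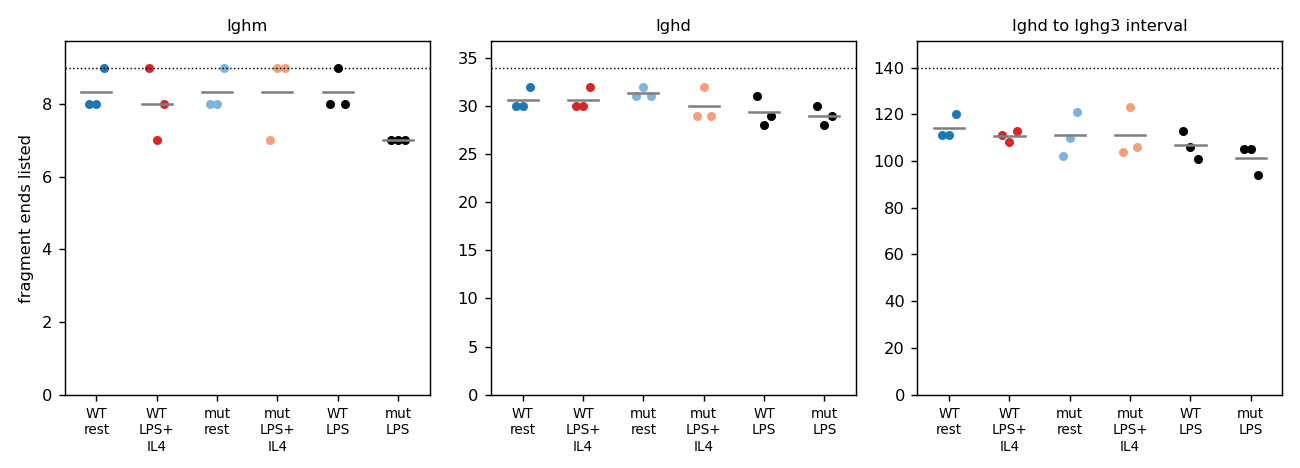
Number of fragment ends listed per library in Ighm, Ighd and the interval to Ighg3, in all 6 groups. Points are libraries, grey bars means of 3 and the dotted line all ends of the piece; Ighd runs from 28 to 32 of 34 ends over all groups.

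The elements whose log2 share followed the stretch most closely over the 12 count libraries were the 3′ flank up to 500 kb from the bait (Pearson r = 0.968), the flank from there to 1 Mb (r = 0.932) and the Ighg3 unit (r = 0.609). The near flank went from 7.44% to 4.97% in WT and from 6.88% to 5.07% in the mutant. The far flank had log2 changes of -0.52 ± 0.09 in WT and -0.39 ± 0.09 in the mutant (edgeR, adjusted p = 0.000158 and 0.00172). Of windows of 5 kb outside the stretch the closest were at 113161025 (r = 0.937), 113146025 (r = 0.90) and 113136025 (r = 0.867), all past Igha in that flank. The correlations describe libraries that share their depth and fall into resting and activated ones, and carry no test.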

How the data were processed

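Raw counts of reads per 24 bp fragment end were deposited for the 12 resting and LPS + IL4 libraries, and the authors' 6 deposited LPS files hold intervals with no value that could be used, so only the presence of an end was taken from them (other). The submitters' processing notes name Bowtie, Bowtie2 and mm10; filters are not given in the sources used here. Groups follow the labels, 3 libraries each.

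Reads were summed per element (25), per window of 2 or 5 kb laid from the edge of the 5 kb bait neighbourhood (1 Mb on the constant side, 3 Mb on the VH side) and per end within 1 Mb; windows and ends needed a mean of 10 reads. They were fitted with edgeR 4.0.16 (robust quasi-likelihood, all 12 libraries, library size the chromosome 12 reads over 5 kb from the bait, no TMM) in R 4.3.3, two-sided, Benjamini-Hochberg over each table, threshold 0.05. The SE given with an edgeR value was derived from the test, as the absolute log2 change divided by the square root of its F statistic. Covered ends were fitted with limma 3.58.1. DESeq2 1.42.0 was an alternative. Python 3.11.15, numpy 2.4.6, pandas 2.3.3, scipy 1.17.1 and matplotlib 3.10.9 did the rest. The edgeR fits were also run on counts simulated under the model they assume, without the library split. That run checks the code and not whether the model holds for these libraries. The fit of elements held 25 where 23 were planned, since Ighd and the stretch next to it were added apart.

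Named windows and ends follow a rule: up to 4 called windows and ends of largest change without overlap per comparison, and the 6 ends of highest mean share. The members and lists were chosen with earlier results of these data known. Alternatives were other scalings, caps, bait neighbourhoods, blocks and each library left out. Same-numbered libraries did not deviate together in every pair, so numbers were not taken as pairs.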

Additional observations from a re-analysis of the deposited data

Results flagged for a closer look

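At 1 of the 151 fitted ends of the stretch, 113376503 in the interval, the resting and activated libraries did not overlap in either genotype and the change had opposite signs in WT and mutant. Groups did not overlap at 12.8% of the 3426 ends fitted in WT and at 12% in the mutant. How many of those ends had opposite signs in the 2 genotypes was not counted. In WT it had 563, 852 and 498 reads at rest and 291, 66 and 103 after LPS + IL4, a fitted log2 change of -2.43. In the mutant it had 0, 2 and 0 reads at rest and 57, 565 and 217 after activation, a fitted change of 7.11, which depends on the few resting reads. The other end of the same cut site, 113376531, did not share the rise in the mutant. By the log2 ratio of group mean shares, 113376531 changed by -0.31 in WT and -2.61 in the mutant, against -2.43 and 7.27 at 113376503. At 113376503 the share after activation was 107 times that at rest in the mutant (2 against 839 reads, exact 95% interval 29.6 to 889, counting error only). The difference between genotypes in the change at 113376503 was 9.54 and did not pass (edgeR, adjusted p = 0.707).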

How the results depend on the processing

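The 15 main results (changes of the whole stretch, counts of 2 kb windows, ratios and covered ends) were kept in 229 of 242 alternatives. For changes, ratios and covered ends, kept means the same direction and side of the threshold. For counts of windows it means an equal count or one within a set factor of it. The window counts by genotype and for the difference of activation changes were 0 in every alternative. For the 52 other results, on pieces, named windows and ends, 515 of 664 alternatives were kept. Of the rest, 97 no longer passed, 5 passed where the main result did not and 29 had the other sign. The remainder were counts of single ends that moved further. The cause was not tested where nothing else is said. The genotype difference of the stretch at rest was 0.0082 with the cap and 0.12 with covered ends. Its difference of activation changes was -0.040 with reads within 1 Mb as library size, -0.043 with the cap and -0.18 with covered ends, and -0.019 to 0.071 without 1 library. Windows of 5 kb gave 4 calls in WT, and DESeq2 gave 14 windows of 2 kb in the mutant; without 1 library the mutant had 5 to 9 and WT 8 to 9. The LPS difference was -0.31 as log odds of covered ends. The ratio to the mirror was -0.29 with the cap. Of values near 0 that turned sign, Ighd at rest was 0.048 with the cap and 0.17 with covered ends, and the interval at rest 0.10 with covered ends. Ighm after LPS + IL4 was -0.020 with reads within 1 Mb, -0.021 with covered ends and -0.027 to 0.15 without 1 library. Differences of activation changes with the cap were 0.082 for Ighm and -0.055 for Ighd, with covered ends -0.28 for Ighd, and for the interval 0.012 with DESeq2 and its own size factors and -0.10 to 0.032 without 1 library. As log odds of covered LPS ends Ighm was -1.14, Ighd -0.12 and the interval -0.29, and Ighm was -0.075 to 0.23 without 1 LPS library. The end at 113419888 was 0.16 in WT with TMM factors, 0.085 with DESeq2 and -0.21 to 0.12 without 1 library, and 0.12 in the mutant with TMM factors, where 113419604 was 0.10. The ratio of Ighd to the interval was 0.015 with the cap. With ends within 10 kb of the bait left out, no value for Ighm could be had. The count of single ends and the ratios of pieces were added after seeing the data; without 1 library the ratio of Ighd to Ighm stayed at -1.07 to -0.96.

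The replicate number as a block gave -1.01 for the stretch in WT and -0.98 in the mutant, 8 and 9 windows of 2 kb, and 0 and 1 single ends in place of 11 and 10. It changed no other call of the results above. It gave 0.19 for the LPS libraries. Values with covered ends have the chromosome 12 total of such ends as denominator, and that total was higher in every activated library than in the resting ones of its genotype, so they do not measure contact in the stretch. How far depth limits single ends was not tested; 101 of 187 had a mean share under 0.01%. The LPS libraries give no read number.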
